A study of Rattus norvegicus with 9 samples.

Results

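The genes of Schwann cells and of the myelin sheath were followed in cultured rat fibroblasts (Fb) that are labelled as fibroblasts of the epineurium (Fb-Epn), of the nerve parenchyma (Fb-Par) and of the skin (Fb-Skn). The list holds 31 genes, namely regulators of the Schwann lineage, markers of Schwann cell states and proteins of myelin, and a gene was included when its symbol stood in the list, whatever its values were. Of these genes, 30 were analysed among the 32883 genes of the tables, and *Foxd3* was not analysed here. The filter on low counts left 19 of them among the 13273 genes tested, and the 11 others are given by their counts.

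Poly(A) RNA was sequenced from 9 libraries, with 3 samples per type. The 2 nerve-derived types, Fb-Epn and Fb-Par, came from the sciatic nerves of 2 male wild-type Lewis rats, whose epineurium was pulled away from the parenchyma by hand, while abdominal skin of 1 other male wild-type Lewis rat gave Fb-Skn. The rats were 10 weeks of age, and no group received a treatment. Fb-Par holds what lies inside the epineurium, so perineurial and endoneurial cells were not separated. Cells were selected only by attachment to an uncoated flask, with the medium changed after 30 minutes, and were passaged 1 time after 3 to 4 days. The 3 samples of a type cannot come from 3 separate rats, so each SD is between samples and each p-value measures that spread, which may be technical. Tissue, rat and body site cannot be told apart when a nerve-derived type is set against Fb-Skn. Total counts ranged from 10084584 to 12310506 per library. Levels are given as TPM, a transcript abundance made from a count divided by gene length and scaled to a fixed sum within a library, and differences were tested by the quasi-likelihood method of edgeR on the counts. A gene was called at a Benjamini-Hochberg adjusted p under 0.01 over all tested genes, and a DE gene also had a log2 fold change over 2 or under -2.

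Schwann cells are the glia of peripheral nerves. Some wrap 1 axon each in a myelin sheath and others hold bundles of thin axons without myelin. The transcription factor Sox10 is needed at every stage of this lineage. Egr2, also known as Krox20, switches on the myelin genes, whereas Sox2 and c-Jun belong to the immature state and to the repair state that follows nerve injury. In compact myelin, Mbp and Pmp22 hold and shape the stacked membranes. Other proteins serve the uncompacted parts of the sheath, the contact with the axon and the node of Ranvier. Several of these genes are also used outside the lineage. *Egr2* is an early response gene in many cells, and *Pmp22* is expressed in growth-arrested fibroblasts.

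The proximal promoters of 4 members that were higher in both nerve-derived types than Fb-Skn were taken from the RefSeq promoter table of build GRCr8. They are shown because these genes, although called in the same direction, differ in the short sequence motifs before their starts. Each line gives 250 bases that end at the annotated start, 5′ to 3′ on the strand of the gene, and capitals mark the motifs searched.
*Egr2* (chr20:21054442-21054691, minus strand): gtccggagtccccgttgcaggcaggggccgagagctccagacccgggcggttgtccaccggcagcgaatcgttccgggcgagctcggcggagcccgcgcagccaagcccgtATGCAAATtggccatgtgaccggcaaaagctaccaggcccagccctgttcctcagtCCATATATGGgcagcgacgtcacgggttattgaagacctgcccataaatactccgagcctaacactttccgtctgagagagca
*Cnp* (chr10:86011254-86011503, plus strand): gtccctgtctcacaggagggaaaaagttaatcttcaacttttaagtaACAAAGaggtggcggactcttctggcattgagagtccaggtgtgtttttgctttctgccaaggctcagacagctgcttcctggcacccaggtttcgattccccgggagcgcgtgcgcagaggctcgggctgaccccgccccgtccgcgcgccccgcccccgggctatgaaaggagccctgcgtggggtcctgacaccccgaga
*Cdh19* (chr13:28533754-28534003, minus strand): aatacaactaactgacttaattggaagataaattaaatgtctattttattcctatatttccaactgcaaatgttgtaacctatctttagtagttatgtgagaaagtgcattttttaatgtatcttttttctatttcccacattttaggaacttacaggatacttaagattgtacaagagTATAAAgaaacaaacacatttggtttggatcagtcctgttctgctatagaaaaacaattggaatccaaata
*S100b* (chr20:12381082-12381331, minus strand): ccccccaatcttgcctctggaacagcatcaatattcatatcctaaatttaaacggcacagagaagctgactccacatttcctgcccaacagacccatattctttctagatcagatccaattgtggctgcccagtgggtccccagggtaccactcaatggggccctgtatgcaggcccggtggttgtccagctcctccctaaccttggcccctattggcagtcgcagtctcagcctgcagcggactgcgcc
The *Egr2* window holds the octamer ATGCAAAT, the sequence bound by POU factors, whose first base lies 139 bases before the start. It also holds a CArG box, the sequence bound by serum response factor, at 83 bases before the start. The *Cnp* window holds ACAAAG, a core sequence of SOX factors, at 203 bases. The *Cdh19* window holds TATAAA at 71 bases, and no searched motif lies in the *S100b* window. On both strands, the octamer was found in 1.56% and ACAAAG in 16.3% of 33469 promoter windows of this length, and the other SOX core searched, ACAATG, in 11.1%. The CArG box, which reads the same on both strands, was found in 1.50%, and TATAAA, searched on the strand of the gene, in 8.06%. Of the members, 23 matched the promoter table, with 25 windows. ACAAAG was found in 3 of these windows (*Cnp*, *Mag* and *Mbp*), ACAATG in 1 (*Mbp*), the octamer in 2 (*Egr2* and *Fa2h*), the CArG box in 1 and TATAAA in 2 (*Cdh19* and *Drp2*). The motifs do not overlap each other in the windows printed. A match gives letters only and no site.

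The members differed widely in level. *Pmp22* was the most abundant in both nerve-derived types, with more RNA than 97.2% of tested genes in Fb-Epn, and *Gldn* was the most abundant in Fb-Skn, above 97.7% of tested genes. *Sox10*, *Sox2*, *Cdh19* and *Gfap* had 0 counts in every Fb-Skn library and were present in all 6 nerve-derived libraries. In Fb-Epn against Fb-Skn, 13 of the 19 tested members were called higher, where 23.0% of all tested genes were, and 1 was called lower, where 20.9% were. In Fb-Par against Fb-Skn, 15 were higher beside 23.2% of all tested genes, and 1 was lower beside 22.4%. Between the nerve-derived types, 2 members were higher in Fb-Epn beside 20.2% of all tested genes, and 12 were lower beside 18.6%. DE genes numbered 11 (8.44% of all tested genes), 9 (8.54%) and 2 (6.48%) in the same order. Of the 19 tested members, 7 had at most 3 counts in every Fb-Skn library and passed the filter through the nerve-derived libraries. They are *Sox10*, *Sox2*, *Sox8*, *Gfap*, *Cdh19*, *Mbp* and *Ugt8*. Their difference from Fb-Skn was set by the filter. The counts of calls against Fb-Skn, and the p-values of these 7 members against Fb-Skn given below, therefore support nothing by themselves. For the 12 tested members with more than 3 counts in an Fb-Skn library, the median log2 fold change was 0.60 in Fb-Epn and 1.18 in Fb-Par against Fb-Skn, and -0.38 in Fb-Epn against Fb-Par. Over all tested genes these medians were -0.00, -0.01 and -0.00. Among the 12 members, *Mpzl2* and *Gap43* still passed the filter through the nerve-derived libraries, and *Tfap2a* through the Fb-Par libraries. Their differences and the medians of the 12 members are therefore not free of the filter. In bulk RNA, fewer cells of a type and less RNA per cell cannot be told apart.

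**Figure D1:**
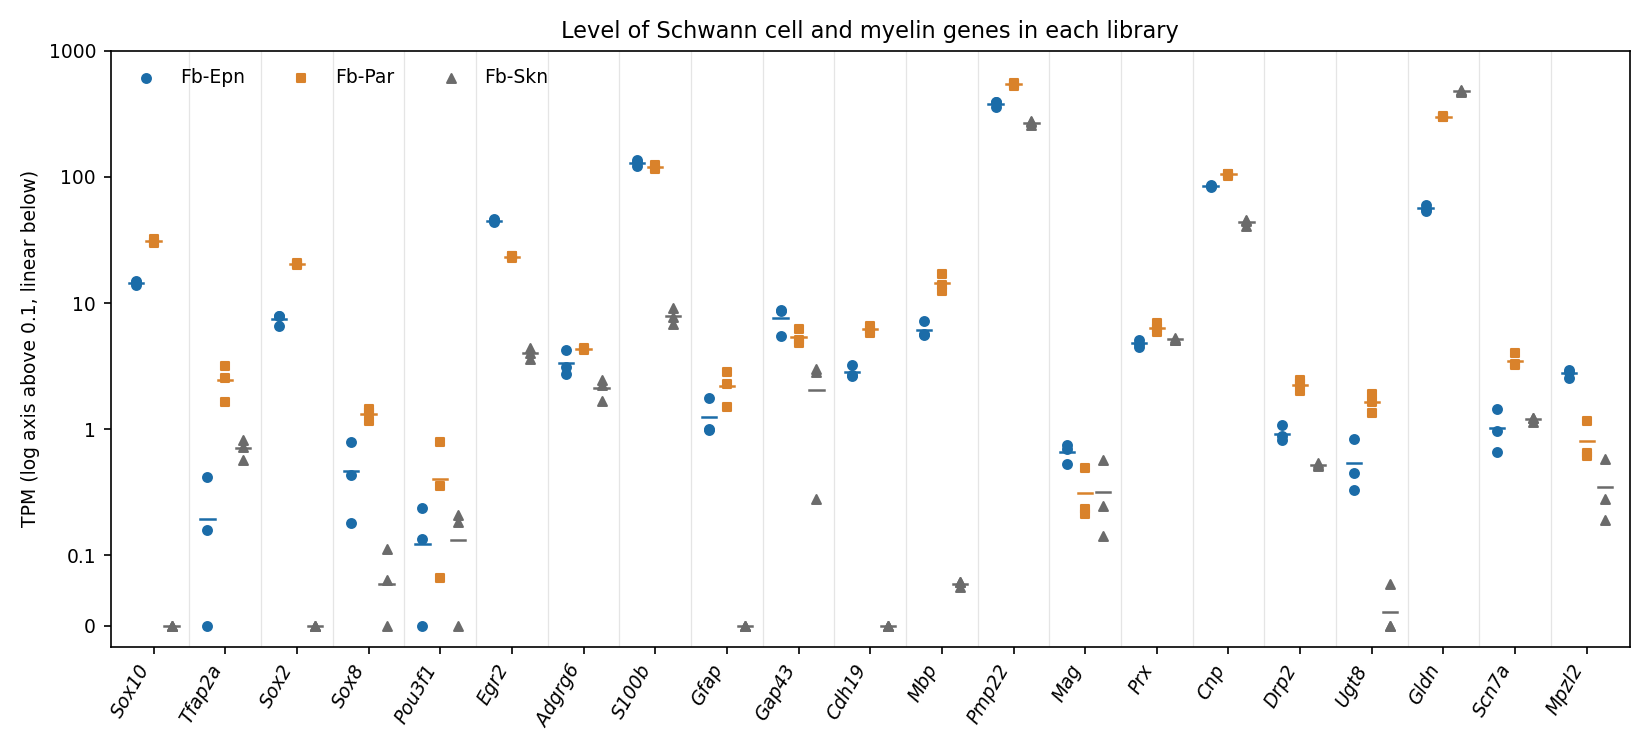
Level of the 21 members with at least 10 counts in a library, as TPM on the vertical axis (logarithmic above 0.1 and linear below), with 1 symbol per library and a short line at the mean of the 3 libraries of each type. *Sox10*, *Sox2*, *Gfap* and *Cdh19* lie at 0 in all 3 Fb-Skn libraries, whereas *Gldn* is highest there.

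*Sox10* (ENSRNOG00000011305; rn6 chromosome 7, 120393254 to 120403523, minus strand) is the master transcription factor of the lineage. Its TPM was 13.9, 15.0 and 14.7 in the Fb-Epn libraries, 30.3, 30.1 and 32.3 in the Fb-Par libraries and 0 in all Fb-Skn libraries. The 3 types did not overlap, and every Fb-Par library held about the same level. The counts behind these values were 211 to 258 in Fb-Epn and 432 to 504 in Fb-Par. Against a floor of 3 counts in each Fb-Skn library, which is what a count of 0 allows, *Sox10* was at least 66.4-fold higher in Fb-Epn (edgeR adjusted p = 8.4e-12) and at least 140-fold higher in Fb-Par (adjusted p = 8.3e-13). These floors cover counting error only. The p-values are for the fitted log2 fold changes and not for these bounds. As for the other members near 0 in Fb-Skn named above, the difference was set by the filter. Within the nerve it was 2.11-fold lower in Fb-Epn than Fb-Par (log2 fold change -1.08, SE 0.085, adjusted p = 3.2e-07, edgeR). A gene on the opposite strand overlaps *Sox10* in the table and had at most 1 count in any library. Whether reads were counted by strand is not given in the sources used here.

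*Sox2* (ENSRNOG00000012199; rn6 chromosome 2, 121165137 to 121167545, plus strand) keeps Schwann cells immature. Its TPM was 7.88, 7.96 and 6.61 in Fb-Epn, 20.8, 20.2 and 20.3 in Fb-Par and 0 in every Fb-Skn library. It followed the order of *Sox10*, with no overlap between types. *Sox2* was at least 26.2-fold higher in Fb-Epn and at least 71.1-fold higher in Fb-Par than the floor in Fb-Skn (edgeR adjusted p = 9.1e-10 and 3.8e-11). It was 2.71-fold lower in Fb-Epn than Fb-Par (log2 fold change -1.44, SE 0.13, adjusted p = 1.2e-06, edgeR).

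*Sox8*, which belongs to the same group of SOX factors as *Sox10* and can stand in for it in part, was measured at few counts. The counts were 13, 8 and 3 in Fb-Epn, 26, 18 and 22 in Fb-Par and 2, 1 and 0 in Fb-Skn. All Fb-Par libraries lay above all others, and the lowest Fb-Epn library lay 1 count above the highest Fb-Skn library. The ratio of scaled counts to Fb-Skn was 6.90 in Fb-Epn (exact 95% counting interval 2.09 to 35.8, edgeR adjusted p = 0.0099) and 19.5 in Fb-Par (6.40 to 97.1, adjusted p = 1.0e-04). The call for Fb-Epn was lost when any 1 of 8 libraries was left out, namely Fb-Epn 1 and 2, Fb-Par 1, 2 and 3, and Fb-Skn 1, 2 and 3, with adjusted p from 0.013 to 0.051. Over all alternatives its adjusted p ran from 0.0033 to 0.051. The log2 fold change for Fb-Epn moved from 2.66 to 3.48 without Fb-Skn 1, and that for Fb-Par from 4.14 to 4.96. The difference between Fb-Epn and Fb-Par was not called (log2 fold change -1.48, SE 0.46, adjusted p = 0.015), but it was without Fb-Epn 1 (log2 fold change -2.05, adjusted p = 0.0069).

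*Egr2* (ENSRNOG00000000640; rn6 chromosome 20, 22454463 to 22459025, minus strand), the driver of the myelin programme whose promoter is printed above, had another order. Its TPM was 45.2, 46.6 and 43.6 in Fb-Epn, 23.5, 23.5 and 22.6 in Fb-Par and 4.37, 3.64 and 4.00 in Fb-Skn. Fb-Epn libraries were the highest and no types overlapped. *Egr2* was 10.2-fold higher in Fb-Epn (log2 fold change 3.35, SE 0.083, adjusted p = 1.2e-13) and 5.20-fold higher in Fb-Par (log2 fold change 2.38, SE 0.087, adjusted p = 8.7e-12) than Fb-Skn by edgeR. Within the nerve it was 1.96-fold higher in Fb-Epn (adjusted p = 1.4e-08), the reverse of *Sox10* and *Sox2*. The genes of its corepressors differed less. *Nab2*, which Egr2 itself induces, had a mean TPM of 81.7, 54.0 and 43.7 in the epineurial, parenchymal and skin types and was 1.52-fold higher in Fb-Epn than Fb-Par (adjusted p = 1.0e-08, edgeR), whereas *Nab1* was not called in any comparison (adjusted p from 0.46 to 0.87).

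*Tfap2a*, a factor of neural crest and of Schwann cell precursors, had its fewest counts in Fb-Epn. They were 7, 3 and 0 in Fb-Epn, 58, 40 and 27 in Fb-Par and 13, 13 and 9 in Fb-Skn, so the 3 types did not overlap. It was 12.3-fold lower in Fb-Epn than Fb-Par (log2 fold change -3.62, SE 0.54, adjusted p = 6.1e-05, edgeR), a value that moved to -4.74 without Fb-Epn 1. The gene passed the filter on low counts through the Fb-Par libraries. Its differences from Fb-Par were therefore in part set by the filter and support nothing by themselves. *Tfap2a* was called 3.13-fold higher in Fb-Par than Fb-Skn (adjusted p = 0.0059, edgeR), but not without Fb-Par 1, Fb-Par 2 or any 1 Fb-Skn library (adjusted p from 0.017 to 0.036), and over all alternatives the adjusted p ran from 5.1e-04 to 0.037. Between Fb-Epn and Fb-Skn it was not called (log2 fold change -1.98, SE 0.63, adjusted p = 0.015), though it was without Fb-Epn 1 (-3.10, adjusted p = 0.0034). *Pou3f1*, a POU factor of the promyelinating stage that the table lists as a pseudogene, had 0 to 4 counts in Fb-Epn, 1 to 13 in Fb-Par and 0 to 3 in Fb-Skn and was not tested.

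*Adgrg6*, the adhesion receptor that starts myelination in Schwann cells, varied little between the types. Its TPM was 2.73, 4.24 and 3.10 in Fb-Epn, 4.26, 4.34 and 4.41 in Fb-Par and 1.69, 2.48 and 2.25 in Fb-Skn. The nerve-derived libraries all lay above the Fb-Skn libraries. It was 1.83-fold higher in Fb-Par than Fb-Skn (log2 fold change 0.87, SE 0.17, adjusted p = 6.4e-04, edgeR). In Fb-Epn against Fb-Skn the log2 fold change of 0.52 was not called (adjusted p = 0.022), though it was without Fb-Epn 1 (0.65, adjusted p = 0.0088). Between the nerve-derived types it was not called either (95% interval -0.71 to 0.00).

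Among the markers of glial state, *S100b* (ENSRNOG00000001295; rn6 chromosome 20, 13130636 to 13142856, minus strand) encodes a calcium-binding protein by which Schwann cells are commonly stained. Its TPM was 121, 137 and 132 in Fb-Epn, 117, 125 and 116 in Fb-Par and 7.79, 9.21 and 6.88 in Fb-Skn. The nerve-derived types overlapped each other and lay far above Fb-Skn. *S100b* was 14.8-fold higher in Fb-Epn (log2 fold change 3.88, SE 0.092, adjusted p = 7.8e-14) and 13.5-fold higher in Fb-Par (log2 fold change 3.75, SE 0.093, adjusted p = 1.1e-13) than Fb-Skn by edgeR. Fb-Epn and Fb-Par were not called different (log2 fold change 0.13, 95% interval -0.01 to 0.27, adjusted p = 0.11). The 49 to 65 counts in each Fb-Skn library show that this marker, unlike *Sox10*, was measurable in skin fibroblasts. The paper reports negligible S100b staining in cultures of each type, which measures protein in cells and not bulk RNA.

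*Cdh19* (ENSRNOG00000029841; rn6 chromosome 13, 32344966 to 32427177, minus strand) encodes a cadherin of Schwann cells and their precursors. Its TPM was 3.22, 2.65 and 2.69 in Fb-Epn, 5.82, 6.63 and 6.17 in Fb-Par and 0 in all Fb-Skn libraries. The order was that of *Sox10*. *Cdh19* was at least 18.9-fold higher in Fb-Epn and at least 40.8-fold higher in Fb-Par than Fb-Skn (edgeR adjusted p = 7.6e-09 and 6.5e-10), and 2.16-fold lower in Fb-Epn than Fb-Par (adjusted p = 1.1e-04).

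*Gfap*, an intermediate filament of non-myelinating and injured Schwann cells, had counts of 18, 21 and 33 in Fb-Epn, 46, 26 and 52 in Fb-Par and 0 in Fb-Skn. It was at least 6.92-fold higher in Fb-Epn and at least 12.1-fold higher in Fb-Par than Fb-Skn (edgeR adjusted p = 1.6e-05 and 2.4e-06). The nerve-derived types overlapped and were not called different (log2 fold change -0.81, SE 0.34, adjusted p = 0.066). *Gap43*, a membrane protein of growing axons that denervated Schwann cells also make, had a TPM of 8.87, 5.47 and 8.64 in Fb-Epn, 6.28, 5.12 and 4.87 in Fb-Par and 2.85, 2.98 and 0.281 in Fb-Skn. The last Fb-Skn library stood far below the other two. *Gap43* was called 3.34-fold higher in Fb-Epn than Fb-Skn (log2 fold change 1.74, SE 0.44, adjusted p = 0.0037, edgeR), a call lost without Fb-Epn 1 (adjusted p = 0.016) or Fb-Epn 3 (adjusted p = 0.015), with adjusted p from 2.2e-05 to 0.032 over all alternatives. In Fb-Par it was not called (log2 fold change 1.24, adjusted p = 0.029). *Fabp7* and *Col28a1* had at most 2 counts in any library.

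The compact myelin proteins split by whether skin fibroblasts held them. *Mbp* (ENSRNOG00000016516; rn6 chromosome 18, 79326738 to 79437310, plus strand), the protein that glues the inner faces of the myelin membrane together, had a TPM of 7.20, 5.64 and 5.66 in Fb-Epn, 12.4, 13.8 and 17.0 in Fb-Par and 0.0544, 0.0624 and 0.0618 in Fb-Skn. Each Fb-Skn value stands for 1 count, beside 97 to 122 counts in Fb-Epn and 220 to 286 in Fb-Par. The ratio of scaled counts to Fb-Skn was 94.0 in Fb-Epn (exact 95% counting interval 31.9 to 458, edgeR adjusted p = 3.7e-10) and 217 in Fb-Par (74.1 to 1057, adjusted p = 1.4e-11). Within the nerve *Mbp* was 2.31-fold lower in Fb-Epn (log2 fold change -1.21, SE 0.14, adjusted p = 6.1e-06, edgeR).

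*Pmp22* (ENSRNOG00000003338; rn6 chromosome 10, 49538588 to 49568583, plus strand), whose dosage matters in inherited neuropathy, was abundant in every type. Its TPM was 391, 361 and 389 in Fb-Epn, 545, 530 and 552 in Fb-Par and 260, 271 and 278 in Fb-Skn. The groups did not overlap, but the range was narrow. *Pmp22* was 1.28-fold higher in Fb-Epn and 1.81-fold higher in Fb-Par than Fb-Skn (log2 fold changes 0.36 and 0.86, SE 0.036 and 0.035, adjusted p = 8.6e-07 and 3.5e-11, edgeR), and 1.42-fold lower in Fb-Epn than Fb-Par (adjusted p = 1.7e-08).

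Of the proteins of uncompacted myelin and of the Schwann cell membrane, *Cnp* (ENSRNOG00000017496; rn6 chromosome 10, 88490798 to 88497356, plus strand), an enzyme that keeps cytoplasmic channels in myelin open, was the most abundant. Its TPM was 86.6, 83.2 and 85.5 in Fb-Epn, 106, 102 and 106 in Fb-Par and 45.6, 40.8 and 44.5 in Fb-Skn. The types did not overlap. *Cnp* was 1.77-fold higher in Fb-Epn and 2.16-fold higher in Fb-Par than Fb-Skn (adjusted p = 9.6e-09 and 2.5e-10, edgeR), and 1.22-fold lower in Fb-Epn than Fb-Par (adjusted p = 2.8e-04).

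Periaxin (*Prx*) and its partner *Drp2* link the outer myelin membrane to the basal lamina. *Prx* had a TPM of 5.12, 4.53 and 4.76 in Fb-Epn, 6.31, 6.97 and 5.93 in Fb-Par and 5.32, 5.13 and 5.09 in Fb-Skn. Skin fibroblasts thus held as much *Prx* as the epineurial ones, whose libraries overlapped with theirs, and neither nerve-derived type was called different from Fb-Skn (95% intervals -0.50 to -0.00 for Fb-Epn and -0.09 to 0.40 for Fb-Par on the log2 scale). *Prx* was called 1.32-fold lower in Fb-Epn than Fb-Par (log2 fold change -0.40, SE 0.11, adjusted p = 0.0089, edgeR), but the call was lost without any 1 library except Fb-Par 3, with adjusted p from 0.012 to 0.044 and from 0.0028 to 0.044 over all alternatives. *Drp2* had a TPM of 1.08, 0.882 and 0.816 in Fb-Epn, 2.01, 2.32 and 2.46 in Fb-Par and 0.525, 0.511 and 0.537 in Fb-Skn. It was 3.87-fold higher in Fb-Par than Fb-Skn (log2 fold change 1.95, SE 0.21, adjusted p = 1.8e-06, edgeR) and 2.42-fold lower in Fb-Epn than Fb-Par (adjusted p = 7.2e-05). Its difference between Fb-Epn and Fb-Skn was not called (log2 fold change 0.68, adjusted p = 0.019).

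*Mag*, an adhesion protein that faces the axon, was not tested, with 9, 11 and 7 counts in Fb-Epn, 3, 6 and 3 in Fb-Par and 2, 3 and 7 in Fb-Skn. *Mal* had 0 counts in every library. *Pllp* had at most 4 counts, and *Gjb1* and *Ncmap* at most 1 and 2. *Cldn19*, a claudin of the tight junctions in myelin, had 6, 4 and 6 counts in Fb-Epn, 3, 4 and 0 in Fb-Par and 0 in every Fb-Skn library. Its Fb-Epn libraries did not overlap with those of Fb-Skn. The filter on low counts removed these genes. When all genes with at least 1 count were tested, *Cldn19* was called higher in Fb-Epn than Fb-Skn (edgeR adjusted p = 0.0046) but not in Fb-Par against Fb-Skn (adjusted p = 0.047), and it was the only one called of the 9 members that this adds to the test.

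Of the enzymes of myelin lipids, *Ugt8* makes galactosylceramide, a glycolipid that is abundant in myelin. Its counts were 8, 17 and 6 in Fb-Epn, 37, 28 and 24 in Fb-Par and 0, 1 and 0 in Fb-Skn. The types did not overlap. The ratio of scaled counts to Fb-Skn was 26.7 in Fb-Epn (exact 95% counting interval 4.45 to 1089, edgeR adjusted p = 4.9e-04) and 79.0 in Fb-Par (13.8 to 3155, adjusted p = 5.2e-06). The only count in skin was in Fb-Skn 2, and without that library the fitted log2 fold changes moved from 4.32 to 6.31 and from 5.88 to 7.87. *Ugt8* was called 2.94-fold lower in Fb-Epn than Fb-Par (adjusted p = 0.0044, edgeR), but not without Fb-Epn 1 or 3 or Fb-Par 1 or 2 (adjusted p from 0.016 to 0.027), with a range of 0.001 to 0.027 over all alternatives. It passed the filter on low counts through the Fb-Par libraries, so this difference was in part set by the filter. *Fa2h*, which hydroxylates the fatty acids of these lipids, had 3 counts in 1 Fb-Epn library, 1 count in 1 Fb-Skn library and 0 elsewhere.

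**Figure D2:**
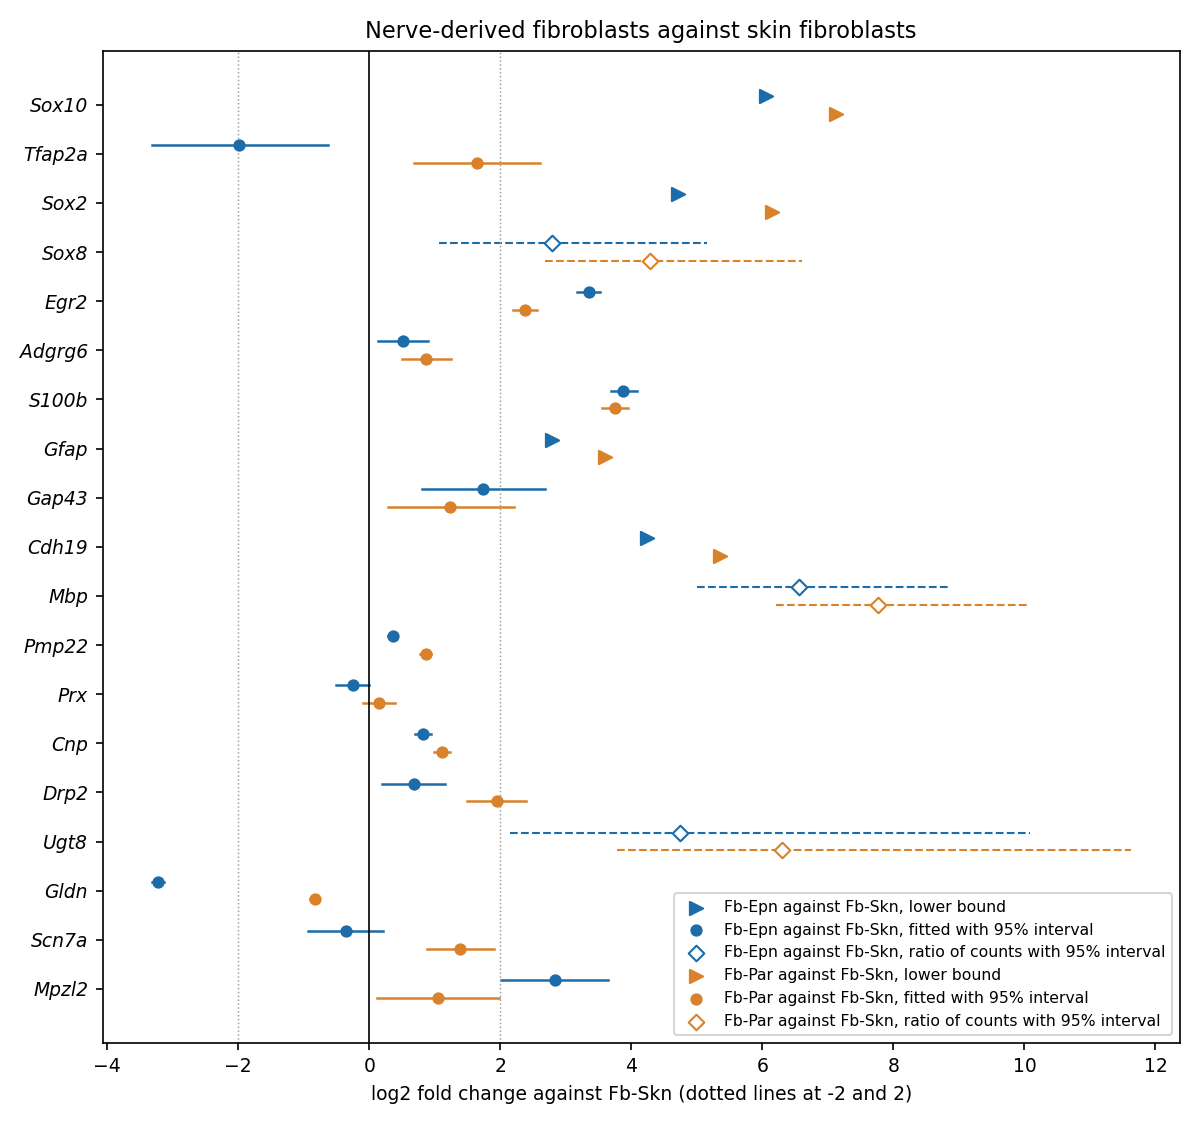
Log2 fold change of the 19 tested members in Fb-Epn (blue) and Fb-Par (orange) against Fb-Skn. Filled circles are edgeR estimates with 95% intervals, diamonds are ratios of scaled counts with exact intervals where Fb-Skn had 1 to 3 counts in all, and triangles are lower bounds where Fb-Skn had 0 counts. *Gldn* is the only member below 0 in both comparisons with a call.

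Gliomedin (*Gldn*; ENSRNOG00000024082; rn6 chromosome 8, 58870516 to 58914603, plus strand) is secreted by Schwann cells and gathers sodium channels at the nodes of Ranvier. It was the only member called lower in a nerve-derived type than Fb-Skn. Its TPM was 60.1, 56.2 and 53.8 in Fb-Epn, 302, 298 and 297 in Fb-Par and 470, 492 and 476 in Fb-Skn. The values within a type were close, the types did not overlap, and skin fibroblasts were the highest. *Gldn* was 9.32-fold lower in Fb-Epn than Fb-Skn (log2 fold change -3.22, SE 0.041, adjusted p = 1.1e-16), 1.78-fold lower in Fb-Par than Fb-Skn (log2 fold change -0.83, SE 0.036, adjusted p = 5.8e-11) and 5.23-fold lower in Fb-Epn than Fb-Par (log2 fold change -2.39, SE 0.041, adjusted p = 1.9e-15) by edgeR. With 651 to 6108 counts per library, it was among the deepest measured members. A small nucleolar RNA on the opposite strand overlaps it and had at most 2 counts.

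*Scn7a*, an atypical sodium channel that non-myelinating Schwann cells express, had a TPM of 0.662, 0.964 and 1.46 in Fb-Epn, 3.28, 4.00 and 3.25 in Fb-Par and 1.15, 1.23 and 1.22 in Fb-Skn. Fb-Par stood above both other types, which overlapped. *Scn7a* was 2.63-fold higher in Fb-Par than Fb-Skn (log2 fold change 1.39, SE 0.24, adjusted p = 1.9e-04, edgeR) and 3.37-fold lower in Fb-Epn than Fb-Par (log2 fold change -1.75, SE 0.24, adjusted p = 3.0e-05). Fb-Epn and Fb-Skn were not called different (95% interval -0.93 to 0.21). *Kcna1*, a potassium channel subunit beside the node that is mainly of the axon, had 0 counts in every library.

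*Mpzl2*, an adhesion protein related to myelin protein zero that epithelia also express, was highest in Fb-Epn. Its counts were 47, 47 and 49 in Fb-Epn, 11, 10 and 19 in Fb-Par and 5, 9 and 3 in Fb-Skn. The types did not overlap. *Mpzl2* was 7.13-fold higher in Fb-Epn than Fb-Skn (log2 fold change 2.83, SE 0.38, adjusted p = 1.9e-05, edgeR) and 3.45-fold higher in Fb-Epn than Fb-Par (log2 fold change 1.79, SE 0.33, adjusted p = 4.4e-04). Fb-Par and Fb-Skn were not called different (adjusted p = 0.053).

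**Figure D3:**
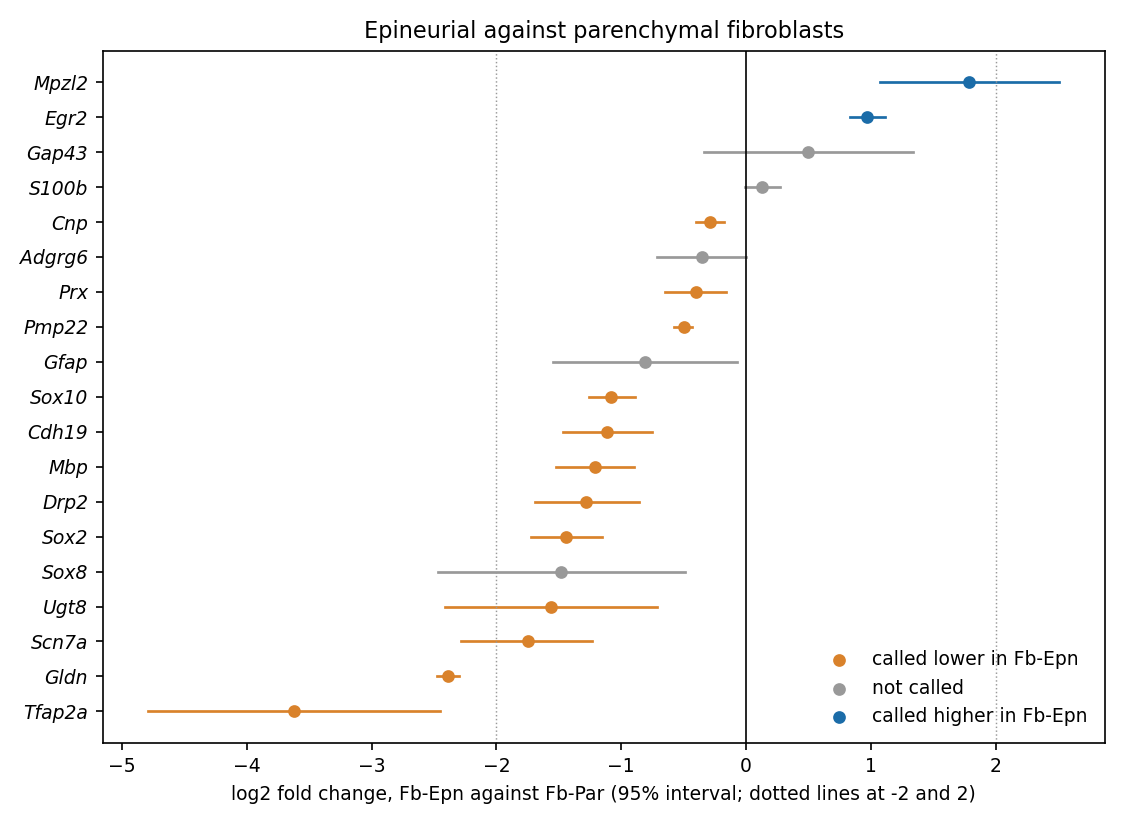
Log2 fold change of each tested member in Fb-Epn against Fb-Par with its 95% interval (edgeR), ordered by size and coloured by call. The 12 members called lower in Fb-Epn include *Sox10* at -1.08 and *Mbp* at -1.21, and *Egr2* and *Mpzl2* are the 2 called higher.

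Within the nerve, *Sox10*, *Cdh19* and *Mbp* stood at similar folds (2.11, 2.16 and 2.31 lower in Fb-Epn), while *S100b* was level and *Egr2* was reversed. To set these side by side without the scale of the libraries, the TPM of each gene was divided by that of *Sox10* in the same library, for 6 genes chosen after their values were seen, so no test was made. *Cdh19* stood at 0.197 ± 0.0306 of *Sox10* in Fb-Epn beside 0.201 ± 0.0168 in Fb-Par (mean ± SD, n = 3 each). *Mbp* stood at 0.427 ± 0.0806 and 0.464 ± 0.0594. The neuregulin receptor gene *Erbb3* stood at 0.489 ± 0.0297 and 0.505 ± 0.0268. For these 3 genes the libraries of the types overlapped. *S100b* stood at 8.91 ± 0.205 in Fb-Epn and 3.87 ± 0.282 in Fb-Par, and *Egr2* at 3.11 ± 0.152 and 0.752 ± 0.0449, while *Sox2* stood at 0.516 ± 0.0616 and 0.662 ± 0.0303. The latter 3 ratios did not overlap between the types.

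**Figure D4:**
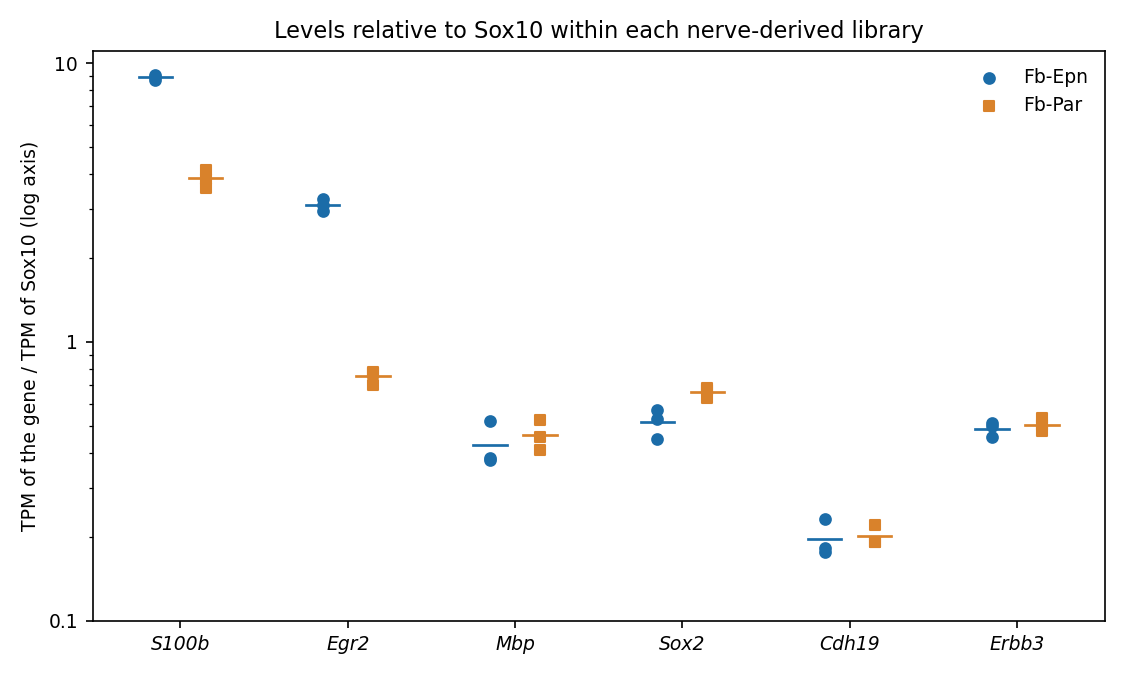
TPM of 6 genes divided by the TPM of *Sox10* in the same library (logarithmic axis), with 1 symbol per library and lines at the means of 3 libraries. *Mbp*, *Cdh19* and *Erbb3* overlap between Fb-Epn and Fb-Par, whereas *S100b* and *Egr2* lie higher in Fb-Epn.

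Signals from the axon and the basal lamina reach Schwann cells through neuregulin, integrins and dystroglycan. Of 18 such genes tested, 11 were higher and 3 lower in Fb-Epn than Fb-Skn, beside 23.0% and 20.9% of all tested genes. In Fb-Par against Fb-Skn, 13 were higher and 5 lower, beside 23.2% and 22.4%. In Fb-Epn against Fb-Par, 4 were higher and 12 lower, beside 20.2% and 18.6%. The median log2 fold changes of the list were 0.35, 0.66 and -0.49. *Erbb3*, the receptor by which Schwann cells bind neuregulin, had a TPM of 7.08, 6.83 and 7.40 in Fb-Epn, 15.3, 16.0 and 15.4 in Fb-Par and 0 in every Fb-Skn library. It was at least 63.6-fold higher in Fb-Epn and at least 138-fold higher in Fb-Par than Fb-Skn (adjusted p = 8.2e-12 and 7.4e-13, edgeR). *Erbb3*, like *Kit* and *Nefh* below, had at most 3 counts in every Fb-Skn library and passed the filter through the nerve-derived libraries. The genes *Lgi4* (5, 5 and 13 counts in Fb-Skn) and, below, *L1cam* (3, 4 and 8) and *Nefl* (2, 3 and 5) passed it in the same way. The differences of these 6 genes from Fb-Skn were therefore set by the filter, wholly or in part, and support nothing by themselves. *Lgi4*, a protein that Schwann cells secrete for myelination, had a mean TPM of 10.3, 19.0 and 0.384 in the epineurial, parenchymal and skin types and was 24.2-fold and 44.6-fold higher in the nerve-derived types (adjusted p = 2.6e-10 and 1.7e-11, edgeR). The ligand gene *Nrg1* was 6.12-fold higher in Fb-Epn than Fb-Par (adjusted p = 2.2e-11, edgeR). *Lama2*, the laminin chain of the Schwann cell basal lamina, was 6.64-fold higher in Fb-Par than Fb-Skn (mean TPM 52.0 and 7.07, adjusted p = 7.9e-14, edgeR), and the integrin gene *Itga7* was 5.19-fold higher (adjusted p = 7.9e-10).

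Among 16 tested partners and brakes of the myelin programme, 5 were higher and 4 lower in Fb-Epn than Fb-Skn, 8 were higher and 3 lower in Fb-Par than Fb-Skn, and 2 were higher and 8 lower in Fb-Epn than Fb-Par. Of all tested genes, 23.0% were higher and 20.9% lower in the first of these comparisons, 23.2% and 22.4% in the second, and 20.2% and 18.6% in the last. The median log2 fold changes of the list were 0.06, 0.14 and -0.18. Its DE genes were *Notch1*, *Hes1* and *Id4*. *Notch1*, a receptor that holds back myelination, was 1.88-fold higher in Fb-Epn and 6.11-fold higher in Fb-Par than Fb-Skn (adjusted p = 3.6e-04 and 2.7e-09, edgeR). Its target *Hes1* was 4.92-fold lower in Fb-Epn and 1.65-fold lower in Fb-Par than Fb-Skn (edgeR adjusted p = 3.1e-12 and 4.2e-07). *Id4*, an inhibitor of transcription factors, was 4.08-fold lower in Fb-Epn than Fb-Skn and 5.80-fold lower than Fb-Par (edgeR adjusted p = 2.4e-11 and 1.5e-12).

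Repair Schwann cells form after injury. Of 10 tested genes of these cells, 6 were higher and 2 lower in Fb-Epn than Fb-Skn, beside 23.0% and 20.9% of all tested genes. In Fb-Par against Fb-Skn, 3 were higher and 5 lower, beside 23.2% and 22.4%. In Fb-Epn against Fb-Par, 5 were higher and 3 lower, beside 20.2% and 18.6%. The medians of the list were 0.92, -0.88 and 1.17. The adhesion gene *L1cam*, with only 3 to 8 counts per Fb-Skn library, followed the order of *Sox10*. Its mean TPM was 6.51, 12.3 and 0.174 in the epineurial, parenchymal and skin types, 33.8-fold and 63.4-fold above Fb-Skn (adjusted p = 5.1e-11 and 3.5e-12, edgeR). The growth factor genes did not follow *Sox10*. *Artn* was 14.7-fold higher in Fb-Epn than Fb-Par and 5.01-fold lower in Fb-Par than Fb-Skn (adjusted p = 8.8e-08 and 4.3e-05, edgeR). *Bdnf* was 21.5-fold lower in Fb-Epn than Fb-Skn (adjusted p = 6.6e-13) and 8.07-fold lower than Fb-Par (adjusted p = 1.2e-10). *Gdnf* was 4.21-fold lower in Fb-Par than Fb-Skn (edgeR adjusted p = 0.002), on few counts (10, 3 and 4 beside 20, 32 and 12). It passed the filter through the Fb-Skn libraries, so this difference was in part set by the filter. *Ncam1*, an adhesion gene, had a mean TPM of 48.2 in Fb-Par and was 6.27-fold higher in Fb-Epn and 4.20-fold higher in Fb-Skn than there (adjusted p = 5.2e-16 and 5.0e-15, edgeR).

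Myelin is rich in cholesterol and other lipids. Of 17 tested synthesis genes, 1 was higher and 9 lower in Fb-Epn than Fb-Skn, beside 23.0% and 20.9% of all tested genes. In Fb-Par against Fb-Skn, 2 were higher and 13 lower, beside 23.2% and 22.4%. In Fb-Epn against Fb-Par, 12 were higher and 1 lower, beside 20.2% and 18.6%. The medians were -0.21, -0.76 and 0.54, opposite in sign to *Mbp* and *Ugt8* in each comparison. The 2 members called higher in Fb-Epn than Fb-Par, *Egr2* and *Mpzl2*, had the sign of this list there. The only DE gene was *Scd*, a fatty acid desaturase gene, which was 4.26-fold lower in Fb-Par than Fb-Skn (adjusted p = 7.9e-09, edgeR).

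The labels call the cells fibroblasts, and the summed TPM of 6 fibroblast markers ranged from 25824 to 31195 over all libraries, led by *Col1a1*. Other cell types share some Schwann cell genes, so their markers are given beside the members. Melanocytes also derive from the neural crest. Their 8 analysed markers summed to 14.9 to 15.6 TPM in Fb-Epn and 14.9 to 17.5 in Fb-Par, and to at most 9.61 in skin libraries. *Mitf* held most of this. *Kit*, a receptor that melanocytes and mast cells share, was a DE gene, with a mean TPM of 1.45, 3.01 and 0.0497 in the epineurial, parenchymal and skin types, and log2 fold changes of 4.59 and 5.62 against Fb-Skn (adjusted p = 1.5e-07 and 5.7e-09, edgeR) that rest on 1 to 2 counts per skin library, and its order was that of *Sox10*. In contrast, *Tyr*, which defines pigment cells, had 0 counts in every library and *Tyrp1* was at most 0.0683 TPM. *Pmel* had a mean TPM of 2.78, 2.88 and 1.62 in the epineurial, parenchymal and skin types and was not called in any comparison. *Mlana* had 6, 4 and 4 counts in Fb-Skn and at most 2 in any nerve-derived library. Of 7 oligodendrocyte markers, *Opalin*, *Mobp* and *Nkx6-2* had 0 counts in every library. *Nkx2-2* had 7, 5 and 9 counts in Fb-Par and 0 in the other types. *Olig1* had at most 7 counts and *Olig2* at most 4 in any library. *Mog* stood at 14.1 to 17.7 TPM in all 3 types and overlaps *Zfp57* on the opposite strand, which had 135 to 188 counts. Of 6 markers of satellite glia and astrocytes, *Aqp4* had 0 counts in every library. The sum, mostly of *Gja1* and *Glul*, was 331 to 341, 179 to 189 and 373 to 405 TPM in the epineurial, parenchymal and skin types. This sum followed *Gja1*, with a mean TPM of 226, 54.7 and 344 in these types. *Glul* had the opposite order, at 99.3, 128 and 35.6. *Slc1a3* was 19.1-fold higher in Fb-Epn than Fb-Par (adjusted p = 5.3e-11, edgeR). It was not called different between Fb-Epn and Fb-Skn (adjusted p = 0.46). Of 9 neuron markers, *Snap25*, *Syt1* and *Rbfox3* were at most 0.256 TPM in any library. Their sum was 582 to 616 TPM in Fb-Skn, nearly all of it *Stmn2*, beside 21.9 to 24.9 in Fb-Epn and 4.71 to 5.79 in Fb-Par. The neurofilament genes ran the other way. *Nefl* and *Nefm* were 4.87-fold and 4.17-fold higher in Fb-Epn than Fb-Skn (adjusted p = 2.6e-04 and 4.2e-05, edgeR), at a mean TPM of 1.09 and 4.55 in Fb-Epn. *Nefh* had a ratio of scaled counts to Fb-Skn of 12.6 in Fb-Epn (exact 95% counting interval 4.05 to 63.7, edgeR adjusted p = 0.0014). *Nefl* was also 8.14-fold higher in Fb-Par than Fb-Skn (adjusted p = 1.1e-05).

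Markers of other cells of the nerve moved with the types too. Of 7 perineurial markers, the sum was 236 to 240 TPM in Fb-Epn, 389 to 396 in Fb-Par and 168 to 186 in Fb-Skn. The Fb-Par sum was set by *Ntn4*, with a mean TPM of 26.1, 302 and 56.7 in the epineurial, parenchymal and skin types, whereas *Slc2a1* stood at 145, 34.9 and 69.0. Of the 4 perineurial markers tested, 3 were called higher and 1 lower in Fb-Epn than Fb-Par, beside 20.2% and 18.6% of all tested genes. *Cldn1* and *Krt19* were at most 0.447 and 0.396 TPM. The 6 macrophage and leukocyte markers were all called higher in Fb-Epn than Fb-Skn, in Fb-Par than Fb-Skn and in Fb-Epn than Fb-Par. Of all tested genes, 23.0%, 23.2% and 20.2% were called higher in these comparisons. The markers summed to 1157 to 1226 TPM in Fb-Epn, 226 to 243 in Fb-Par and 76.2 to 82.4 in Fb-Skn, the same order of types as *Egr2* and *Mpzl2*. The 5 endothelial markers summed to 14.8 to 15.3, 10.3 to 11.7 and 0.980 to 1.51 TPM. The 6 mural cell markers summed to 3414 to 3641, 5684 to 5841 and 10491 to 10938 TPM, nearly all of it *Acta2*, which cultured fibroblasts also express. The other 5 markers had their highest mean in Fb-Par, among them *Notch3* (6.35, 72.5 and 1.55 TPM) and *Rgs5* (4.49, 14.9 and 0 TPM). All 6 were called lower in Fb-Epn than Fb-Par, beside 18.6% of all tested genes. In Fb-Par against Fb-Skn, 5 were higher and 1 lower, beside 23.2% and 22.4%. The 9 keratinocyte markers summed to 1.64 to 2.05, 1.78 to 3.00 and 2.50 to 5.96 TPM, with *Krt15* at 0 in every library. The part of these other cells in the values of the members was not tested.

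**Figure D5:**
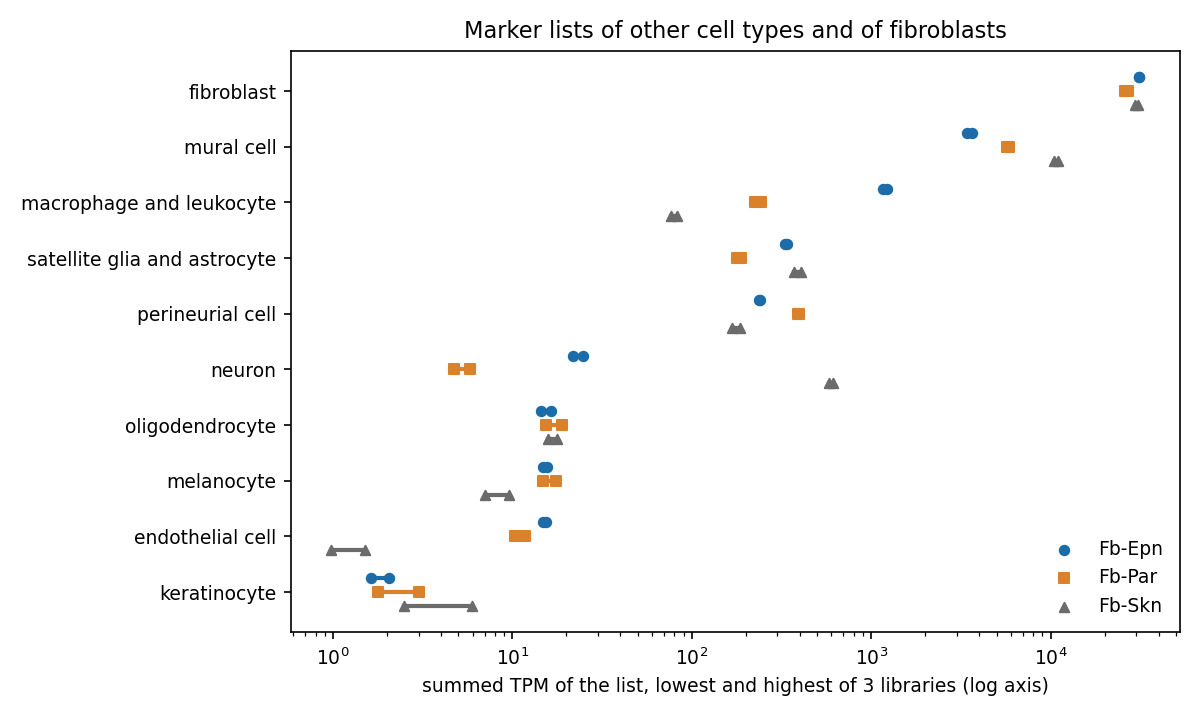
Summed TPM of each marker list (logarithmic axis), with the lowest and the highest of the 3 libraries of each type joined by a line. Macrophage markers are highest in Fb-Epn at 1157 to 1226, the mural sum, nearly all *Acta2*, is highest in Fb-Skn at 10491 to 10938, and the fibroblast list is within 25824 to 31195 in every library.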

How the data were processed

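The members and the other gene lists were chosen with earlier results of these data known. The authors deposited raw counts per gene and TPM for 9 poly(A) libraries aligned to rn6. The submitters' processing notes name FastQC 0.11.7, Trimmomatic 0.38, HISAT2 2.1.0 and featureCounts 1.6.3. The annotation release and the strand setting are not given in the sources used here. A table of FPKM was not used.

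Groups were taken from the sample labels. Counts were tested with edgeR 4.0.16 (R 4.3.3, TMM, default expression filter, quasi-likelihood F test) in 1 model of all 9 libraries. No pairing was used, since the study does not say that equal numbers mark a shared rat or batch. Deviations of libraries that share a number correlated at -0.080 to 0.020, which does not settle whether they share a rat. Libraries of a type differed by 3.53 to 6.18 times counting noise, so none was a duplicate, and the common coefficient of variation was 8.25%. Levels are the deposited TPM. Members with at least 10 counts in a library are given per sample. Genes of the pathway lists are named where they were DE genes (at most 4 per list and comparison). From the lists of cell type markers, some genes are named for their levels, and not every DE gene of these lists is named. *Nab1* and *Nab2* were added after their values were seen. Counts of 0 were set to 3 per library for lower bounds, and intervals of 95% on summed counts are exact (Clopper-Pearson). With simulated data, the count test was checked for Fb-Epn against Fb-Skn with 13111 genes. In it, 49 of 50 genes changed 2-fold were called, as were 50 of 50 at 4-fold, and 3 unchanged genes were called. The changed genes were drawn only above a minimum of counts, and every gene was given the same spread. The check therefore does not cover genes with fewer counts or a wider spread. Alternatives covered normalization, filters, DESeq2 1.42.0, limma 3.58.1 on log2(TPM + 1) and log2(TPM + 0.1), the libraries used and the thresholds. Figures used Python 3.11.15 and matplotlib 3.10.9.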

Additional observations from a re-analysis of the deposited data

How the results depend on the processing

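Of 57 log2 fold changes of members, none changed direction in 1049 alternative values, of which 1000 kept their side of the threshold, 38 fell short of it and 11 passed it, over 10 log2 fold changes of *Tfap2a*, *Sox8*, *Adgrg6*, *Gap43*, *Drp2*, *Prx* and *Ugt8*. Requiring at least 10 counts in every library removes members near 0 in a type by construction. It left 4 members higher and 3 DE in Fb-Epn against Fb-Skn, 7 higher and 2 DE in Fb-Par against Fb-Skn, and 1 higher, 6 lower and 1 DE in Fb-Epn against Fb-Par. The members lower in Fb-Epn than Fb-Skn became 2, with *Tfap2a* beside *Gldn*, when all genes with at least 1 count were tested, with DESeq2 and at an adjusted p of 0.05, and were 1 to 2 with each library left out. limma on log2(TPM + 1) gave 6 DE members for Fb-Epn against Fb-Skn and 1 for Fb-Epn against Fb-Par, as did a test against a log2 fold change of 2 for the latter; the pseudocount shrinks the change of low genes. limma on TPM also moved the median of all genes by 0.136 to 0.150 on the log2 scale in the comparisons with Fb-Skn. With the replicate number as a block, 12 members were higher in Fb-Epn than Fb-Skn and 11 were lower in Fb-Epn than Fb-Par. *Sox8* (edgeR adjusted p = 0.013) and *Prx* (edgeR adjusted p = 0.016) lost their calls. Whether the numbers pair the samples is not given in the sources used here. Depth limits what can be said of *Sox8*, *Ugt8*, *Tfap2a* and *Mag*, and 9 members had at most 6 counts in any library. Of these, *Cldn19* was called higher in Fb-Epn than Fb-Skn when all genes with at least 1 count were tested.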
